A study of Homo sapiens with 4 samples.

Results

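Aldehyde dehydrogenases (ALDH) are enzymes that oxidise aldehydes to carboxylic acids, and their activity is used in haematology to mark stem and progenitor cells. 9 genes of this family and the retinoic acid receptor gene RARA were examined, as the 10 genes of a fixed list whose symbols were looked up among the 32673 genes of the expression table. All 10 were found, with 1 row each. The sensitive cells, TF1-BA, descend from TF1, an erythroleukaemia line of human origin, and received the oncogene BCR-ABL by retroviral infection. Imatinib, an inhibitor of the BCR-ABL kinase, was given to them for months to select the resistant cells, TF1-BAR, for whose culture the labels give 2 μM of the drug. Both lines therefore carry BCR-ABL, and for both the labels give a medium with GM-CSF and serum. The labels call TF1 a line of chronic myeloid leukaemia (CML). Each was sequenced as 2 libraries of 10000000 cells. The titles of the resistant libraries name a vector, while other labels name TF1-BAR, the name used here. Each condition is 1 cell line, and resistance, drug present at harvest and any vector cannot be told apart.

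The libraries held between 15465497 and 18042299 fragments. Expression is given as FPKM, the fragment number scaled to transcript length and to library size, so that levels of different genes are compared per length. All 10 markers chosen for TF1 were expressed, among them GATA1, GATA2, KIT and CD34, and their summed level was 480 and 463 FPKM in the sensitive libraries against 604 and 637 FPKM in the resistant ones. For 9 markers of lymphoid, epithelial, stromal and liver cells the sums were 23.2 and 25.0 against 11.9 and 12.2 FPKM. The lower sum rests on CD3D alone, at a mean of 19.9 FPKM in TF1-BA and 6.05 FPKM in TF1-BAR, whereas CD3E of the same T cell complex had at most 0.023 FPKM. Without CD3D the other 8 markers summed to 3.96 and 4.28 FPKM in TF1-BA and to 6.12 and 5.88 FPKM in TF1-BAR. Among those that were higher in both resistant libraries were stromal LUM, with 0.276 and 0.150 against 1.18 and 1.10 FPKM, and the B cell marker CD79A, with 1.84 and 2.19 against 3.55 and 3.15 FPKM. The part of other cells in the results was not tested. In bulk RNA, fewer cells that express a gene and less RNA per cell cannot be told apart.

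Retinol taken up by cells is oxidised to retinal and then, by the ALDH1A enzymes, to retinoic acid. Retinoic acid binds a dimer of a retinoic acid receptor such as RARA with a retinoid X receptor, and the dimer switches its target genes from repression to activation. In myeloid cells this pathway is known for driving differentiation, and a fusion of PML with RARA is the lesion of acute promyelocytic leukaemia. ALDH1A1 is the isoenzyme most often linked to the ALDH activity of blood stem cells.

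The members differed in level far more than they differed between the cell lines. ALDH1A1 stood highest of the 10 in both lines, and the other retinaldehyde dehydrogenases, ALDH1A2 and ALDH1A3, had under 1 FPKM in every library. The 100 bases directly before the transcription start of these 3 genes, from the RefSeq promoter table of GRCh38.p14, are shown because they belong to the highest and to 2 of the lowest members although the enzymes do the same reaction. Capitals mark CCAAT, the CCAAT box, and AGATAA, a form of the GATA motif. Each run is written 5′ to 3′ on the strand of its gene.
ALDH1A1, chr9:72953054-72953153, minus strand: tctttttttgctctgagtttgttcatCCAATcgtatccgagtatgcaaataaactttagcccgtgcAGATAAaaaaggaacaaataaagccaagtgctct
ALDH1A2, chr15:58065712-58065811, minus strand: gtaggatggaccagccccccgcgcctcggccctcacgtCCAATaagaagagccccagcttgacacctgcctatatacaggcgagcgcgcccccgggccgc
ALDH1A3, chr15:100879731-100879830, plus strand: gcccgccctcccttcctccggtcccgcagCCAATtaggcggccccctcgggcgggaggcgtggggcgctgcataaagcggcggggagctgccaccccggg

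The 3 promoters share a CCAAT at a like distance, its first base at -74 in ALDH1A1, -62 in ALDH1A2 and -71 in ALDH1A3, counted back from the start. They differ in base composition. Over the window of 300 bases that holds 250 bases before and 50 after the start, the ALDH1A1 promoter had a GC content of 40.3%, that of ALDH1A2 74.0% and that of ALDH1A3 81.7%, against a median of 58.7% over all 35116 promoters of the table. A further ALDH1A2 promoter in the table had 42.7%. AGATAA stood at bases -34 to -29 of ALDH1A1, and also at -140 to -135 of the further ALDH1A2 promoter, so that it was not particular to ALDH1A1. Searched on both strands, CCAAT was present in 34.61% and AGATAA in 10.33% of all promoters. A direct repeat of half-sites for the retinoic acid receptor with a spacer of 5 bases, each half-site being AGGTCA, or AGTTCA, or GGGTCA, or else GGTTCA, occurred in 0.09% of all promoters. It was in none of the 14 windows of the 9 members that the table holds, which says only that these letters are not in these windows. ALDH2 has no entry.

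ALDH1A1 (ENSG00000165092, chromosome 9, 72900662 to 73080442, GRCh38 as for all positions given) is the cytosolic enzyme that makes retinoic acid from retinal. TF1-BA had 95.8 and 88.3 FPKM and TF1-BAR 101 and 95.6 FPKM, from 3890 to 4925 fragments per library. The ranges of the cell lines overlapped. By mean level ALDH1A1 ranked 351st in TF1-BA and 324th in TF1-BAR cells among the 32673 genes. Its log2 fold change, TF1-BAR minus TF1-BA on log2(FPKM + 0.5), was 0.096 (95% interval -0.083 to 0.27, adjusted p = 0.346 from limma). A change as large as the fold threshold of 1 lies outside this interval.

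ALDH1A2 and ALDH1A3 make retinoic acid in embryonic and epithelial tissues. Neither reached the mean of 0.5 FPKM set for testing. ALDH1A2 (ENSG00000128918, chromosome 15, 57953424 to 58497866) had 48 and 28 fragments in TF1-BA against 45 and 73 in TF1-BAR, or 0.309 and 0.210 against 0.331 and 0.527 FPKM. By FPKM both resistant libraries were above both sensitive ones. With limma voom on fragments recovered from the FPKM its log2 fold change was 0.61 (95% interval -0.019 to 1.23, adjusted p = 0.114). ALDH1A3 (ENSG00000184254, chromosome 15, 100877714 to 100916626) had 12 and 4 fragments against 4 and 3, so that no difference was detectable at this depth. In the GENCODE 44 annotation 32.15% of the ALDH1A3 exon bases overlap the opposite-strand gene ALDH1A3-AS1, and 4.36% of those of ALDH1A2 overlap AQP9. Counting by strand is not stated, so the reads of such partners cannot be told apart.

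**Figure D1:**
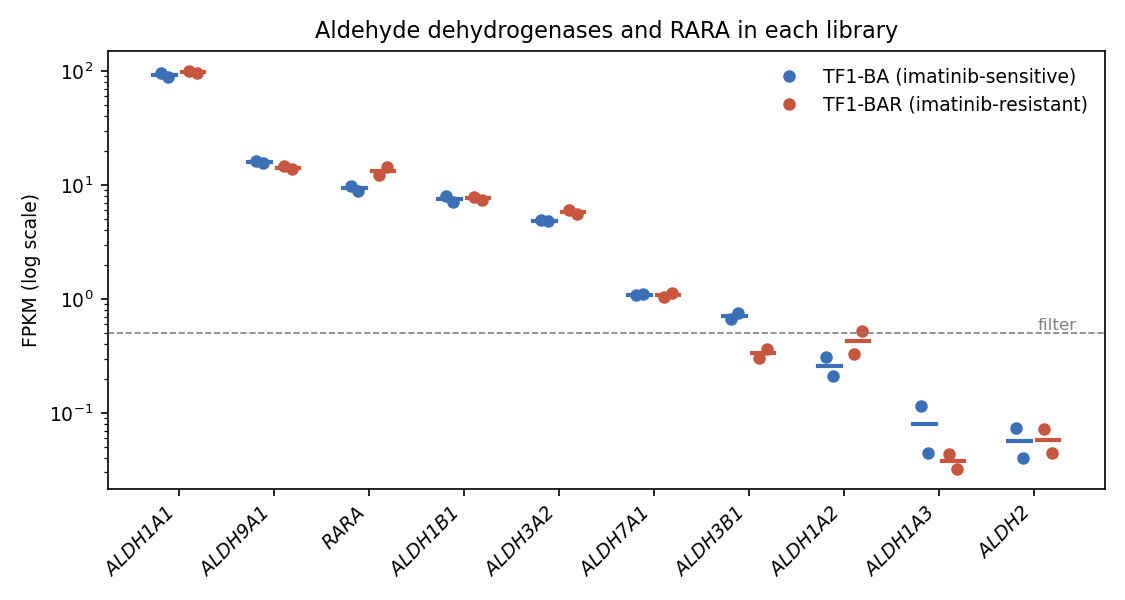
FPKM of the 10 members in each library on a log axis, TF1-BA in blue and TF1-BAR in red, with a short line at the mean of each pair and a dashed line at the filter of 0.5 FPKM. ALDH1A1 lies highest in all 4 libraries, between 88.3 and 101.0 FPKM, and the colours separate for RARA, ALDH3A2 and ALDH1A2 (red above) and for ALDH9A1, ALDH3B1 and, narrowly, ALDH1A3 (blue above).

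ALDH2 and ALDH1B1 are mitochondrial enzymes that oxidise acetaldehyde, and ALDH2 is the main acetaldehyde dehydrogenase of the liver. ALDH2 (ENSG00000111275, chromosome 12, 111766887 to 111817529) had the lowest mean of the 10 in TF1-BA, with 13 and 6 fragments against 11 and 7 in TF1-BAR. These correspond to 0.0741 and 0.0399 against 0.0718 and 0.0448 FPKM, and the lines overlapped. ALDH1B1 (ENSG00000137124, chromosome 9, 38392664 to 38398661) was expressed, at 7.98 and 7.05 FPKM in TF1-BA and 7.92 and 7.35 FPKM in TF1-BAR. Its libraries overlapped as well. The log2 fold change of ALDH1B1 was 0.024 (95% interval -0.22 to 0.27, adjusted p = 0.868) and changed sign with the scaling, to -0.023 with quantile normalization.

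ALDH3A2, ALDH3B1, ALDH7A1 and ALDH9A1 act on other aldehydes. ALDH3A2 (ENSG00000072210, chromosome 17, 19648136 to 19677598) oxidises fatty aldehydes in the endoplasmic reticulum, and its loss causes Sjögren-Larsson syndrome. It had 4.89 and 4.81 FPKM in TF1-BA and 6.04 and 5.60 FPKM in TF1-BAR. Both resistant libraries were higher, but the log2 fold change of 0.24 (95% interval 0.024 to 0.45) had an adjusted p of 0.0941.

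ALDH3B1 (ENSG00000006534, chromosome 11, 68008578 to 68029282), which handles aldehydes from lipid peroxidation, had 80 and 77 fragments in TF1-BA against 32 and 39 in TF1-BAR. In FPKM these were 0.669 and 0.751 against 0.306 and 0.366, with a mean 2.11 times as high in the sensitive cells. The groups did not overlap. ALDH3B1 passed the filter of 0.5 FPKM only through its TF1-BA libraries, so its test with that filter is not used. With no filter the log2 fold change, which the added 0.5 FPKM compresses at this level, was -0.53 (adjusted p = 0.127). With voom on the fragments, where each library was above the mean of 10 set for testing, it was -1.15 (95% interval -1.66 to -0.64, adjusted p = 0.00191), past both thresholds.

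ALDH7A1 (ENSG00000164904, chromosome 5, 126531200 to 126595418), an enzyme of lysine breakdown, had 1.07 and 1.10 FPKM in TF1-BA and 1.04 and 1.13 FPKM in TF1-BAR, and the lines overlapped. Its log2 fold change was -0.0025 (95% interval -0.36 to 0.36, adjusted p = 0.991), and 0.057 with FPKM rescaled to TPM. A pseudogene, ALDH7A1P1, may share reads with ALDH7A1. ALDH9A1 (ENSG00000143149, chromosome 1, 165662216 to 165698863), which acts in carnitine synthesis, had 16.1 and 15.7 FPKM in TF1-BA and 14.6 and 13.9 FPKM in TF1-BAR. Both resistant libraries were lower. The log2 fold change of ALDH9A1 was -0.15 (95% interval -0.33 to 0.025, adjusted p = 0.162), and with voom -0.25 (adjusted p = 0.0476).

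RARA (ENSG00000131759, chromosome 17, 40309192 to 40357643) encodes the retinoic acid receptor alpha. TF1-BA had 9.90 and 8.88 FPKM and TF1-BAR 12.3 and 14.4 FPKM, from 650 to 1095 fragments per library. Both resistant libraries were above both sensitive ones, with a mean 1.42 times as high. RARA rose by 0.49 on the log2 scale (standard error 0.107, 95% interval 0.21 to 0.76, adjusted p = 0.0318), which passes the adjusted p but not the fold threshold. Its adjusted p was 0.108 without TF1-BA replicate 1, 0.166 without TF1-BA replicate 2, 0.0940 without TF1-BAR replicate 2 and 0.0934 with no filter on low values. The opposite-strand gene RARA-AS1 overlaps 11.72% of the RARA exon bases. The 20 genes tested nearest to RARA had a median log2 fold change of 0.16, and all genes tested on chromosome 17 had 0.11.

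Of the 7 members above the filter, 6 are counted here, without ALDH3B1. 0 passed both thresholds in limma, against 4.75% of the 15519 genes tested, and 1 passed the adjusted p alone, RARA, against 26.9%. 2 had an unadjusted p under 0.05, against 42.2%. Libraries did not overlap for 3 of the 6, against 69.3% of all genes tested, with 2 higher in the resistant cells (40.9% of all genes) and 1 lower (28.4%). The median log2 fold change was 0.060 over the 6 and 0.066 over all genes tested. With voom on the fragments 1 of 8 members, ALDH3B1, passed both thresholds, against 9.39%, and 3 had an adjusted p under 0.05, against 39.9%.

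**Figure D2:**
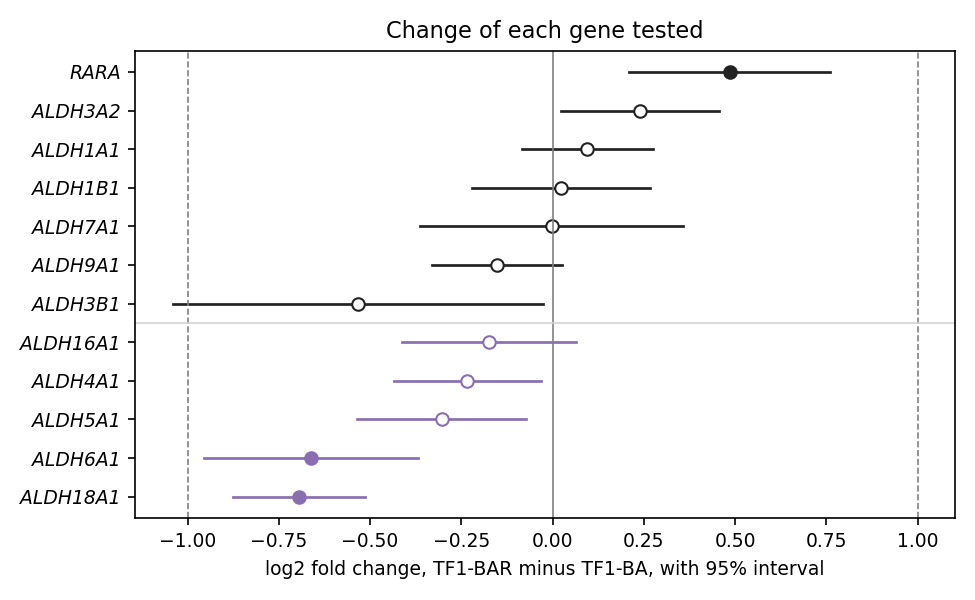
Log2 fold change (TF1-BAR minus TF1-BA, on log2(FPKM + 0.5)) with its 95% interval for the 7 members above the filter (black) and 5 other aldehyde dehydrogenase genes (purple). ALDH3B1 passed the filter only through TF1-BA, so its test drawn here is not used. Filled points have an adjusted p under 0.05 and dashed lines mark the fold threshold: RARA is filled at 0.49, ALDH6A1 at -0.66 and ALDH18A1 at -0.70, and the interval of ALDH1A1 spans 0.

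In order of mean level, TF1-BA cells had ALDH1A1, ALDH9A1, RARA, ALDH1B1, ALDH3A2, ALDH7A1, ALDH3B1, ALDH1A2, ALDH1A3 and ALDH2. Among neighbours in this order, only the libraries of ALDH1A3 and ALDH2 overlapped. In TF1-BAR cells ALDH9A1 and RARA overlapped, at 13.9 to 14.6 and 12.3 to 14.4 FPKM. ALDH1A2 there had a higher mean than ALDH3B1, with overlapping libraries. The order depends on the gene lengths behind the FPKM, recovered as 17970 bases for ALDH7A1 and 3155 bases for ALDH1B1. ALDH7A1 had 295 to 348 fragments per library and ALDH1B1 344 to 454.

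The 10 aldehyde dehydrogenase genes outside the list include ALDH18A1, the gene of the family next to ALDH1A1 in level. Of these 10 genes, 8 were listed and 5 tested, and all 5 were lower in each resistant library than in each sensitive one, as were 28.4% of all genes tested. 0 passed both thresholds in limma, against 4.75% of all genes tested, 2 fell by the adjusted p, against 10.5%, and 4 had an unadjusted p under 0.05, against 42.2%. With voom, 4 of these 5 had an adjusted p under 0.05, against 39.9%. ALDH18A1, the mitochondrial enzyme that starts proline synthesis from glutamate, had 59.4 and 61.1 FPKM in TF1-BA and 38.7 and 35.4 FPKM in TF1-BAR. It fell by 0.70 on the log2 scale (adjusted p = 0.00678). Around ALDH18A1 on chromosome 10 the 20 genes tested nearest to it had a median of -0.32, and that of the whole chromosome was -0.35.

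ALDH6A1, an enzyme of valine breakdown, had 5.06 and 5.74 FPKM in TF1-BA and 3.48 and 2.99 FPKM in TF1-BAR, and fell by 0.66 (adjusted p = 0.0187). Its 20 nearest genes tested, on chromosome 14, had a median of 0.052. Without TF1-BA replicate 1 or 2 the adjusted p was 0.0774 and 0.113 for ALDH6A1 and 0.0576 and 0.0619 for ALDH18A1, and it was 0.0678 for ALDH6A1 without TF1-BAR replicate 2 and 0.0663 with no filter on low values. The log2 fold changes of ALDH4A1 (proline breakdown), ALDH5A1 (GABA breakdown) and ALDH16A1 were -0.23, -0.30 and -0.17, with adjusted p of 0.0852, 0.0637 and 0.219. With voom they were -0.34, -0.41 and -0.27, with adjusted p of 0.0207, 0.00534 and 0.0525. ALDH8A1, below the filter, had 6 and 6 fragments in TF1-BA against 15 and 20 in TF1-BAR. It reached the mean of 10 fragments set for voom only through its TF1-BAR libraries, so no test is given.

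The make-up of aldehyde dehydrogenase transcripts differed between the lines in each pair of libraries. Over the 17 listed family genes, the FPKM summed to 219.5 and 212.5 in TF1-BA and to 198 and 186 in TF1-BAR. ALDH1A1 made up 43.6% and 41.5% of that sum in TF1-BA and 51.0% and 51.5% in TF1-BAR, and ALDH18A1 made up 27.1% and 28.8% against 19.5% and 19.1%. The shares of the lines did not overlap for either gene. Without ALDH1A1 the sum was 124 and 124 FPKM against 97.2 and 90.1 FPKM. With 2 libraries per line a two-sided exact permutation test of such a share cannot give a p below 0.333.

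**Figure D3:**
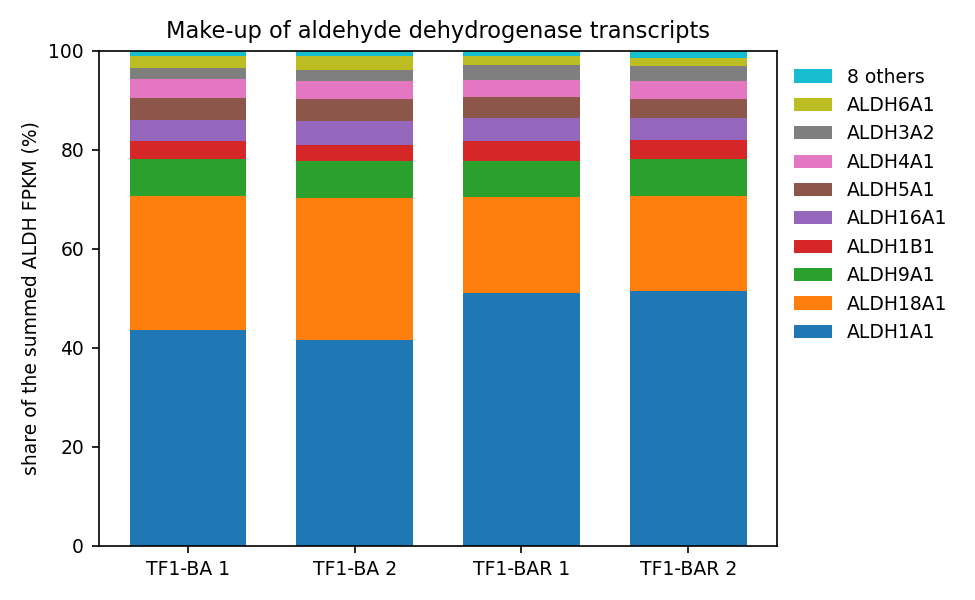
Share of the summed FPKM of 17 aldehyde dehydrogenase genes taken by each gene in each library, as stacked bars from 0 to 100%. ALDH1A1 takes 43.6% and 41.5% in TF1-BA against 51.0% and 51.5% in TF1-BAR, and the ALDH18A1 segment is smaller in TF1-BAR.

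Some genes of the wider retinoid pathway changed by more than RARA. Of 43 genes of retinoid metabolism and signalling, 40 were listed and 28 were tested. 2 rose and 3 fell past both thresholds, against 3.05% and 1.69% of all genes tested, and 7 were higher and 5 lower by the adjusted p alone, against 16.3% and 10.5%. The median log2 fold change of the 28 was 0.20.

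Among the receptors, RXRA and RXRB, retinoid X receptors that pair with RARA, passed the adjusted p. RXRA had 3.88 and 4.10 FPKM in TF1-BA and 6.51 and 7.70 FPKM in TF1-BAR, and rose by 0.76 on the log2 scale (95% interval 0.48 to 1.03, adjusted p = 0.0121). RXRB had 11.8 and 12.04 against 15.3 and 16.2 FPKM and rose by 0.39 (95% interval 0.21 to 0.57, adjusted p = 0.0210). The groups did not overlap for either gene. Without TF1-BA replicate 1 or 2 the adjusted p was 0.0811 and 0.0727 for RXRA and 0.148 and 0.132 for RXRB, and it was 0.0628 for RXRB without TF1-BAR replicate 2. With no filter it was 0.0518 for RXRA and 0.0502 for RXRB. RARG had 1.69 and 1.55 against 1.74 and 2.29 FPKM, with a log2 fold change of 0.24 (95% interval -0.15 to 0.63, adjusted p = 0.280). RARB, below the filter, had 0.225 and 0.157 against 0.206 and 0.353 FPKM, and its libraries overlapped.

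For uptake and binding of retinoids, 4 genes were tested. STRA6, the membrane receptor that takes up retinol from its plasma carrier, had 0.879 and 0.832 FPKM in TF1-BA and 4.79 and 4.09 FPKM in TF1-BAR. It rose by 1.86 on the log2 scale (95% interval 1.55 to 2.17, adjusted p = 0.00384), past both thresholds under all 14 alternatives tried. CRABP2, which carries retinoic acid to the nuclear receptors, had 2.42 and 1.59 against 0.750 and 0.679 FPKM. It fell by 1.02 (95% interval -1.55 to -0.50, adjusted p = 0.0253), and its adjusted p was between 0.0544 and 0.113 when any 1 of the 4 libraries was left out, and 0.0910 with no filter. With a pseudocount of 1 FPKM the log2 fold change of CRABP2 was -0.80, short of the fold threshold. FABP5, which also binds retinoic acid, rose by 0.51 (adjusted p = 0.0328, and 0.0965 with no filter), and CRABP1 had a log2 fold change of -0.083 (adjusted p = 0.702).

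Of the enzymes that interconvert retinol, retinal and their stores, 7 of 12 were tested and 0 passed both thresholds, against 4.75% of all genes tested. By the adjusted p 1 of the 7 was higher, against 16.3%, and 1 lower, against 10.5%. RDH13 rose by 0.50 (adjusted p = 0.0316) and DHRS9 fell by 0.69 (adjusted p = 0.0416), and with no filter the adjusted p was 0.0899 and 0.105. RDH10, the main retinol dehydrogenase of the embryo, had 7.72 and 6.98 against 7.57 and 7.04 FPKM, with overlapping libraries. The clearance enzymes CYP26A1, CYP26B1 and CYP26C1, which degrade retinoic acid, were all below the filter, CYP26A1 with 0.466 and 0.413 against 0.491 and 0.251 FPKM.

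All 9 partners of RARA in the list were tested, and 1, ZBTB16, passed the adjusted p, against 26.9% of all genes tested. ZBTB16, a transcriptional repressor that like PML is found fused to RARA in promyelocytic leukaemia, had 1.50 and 1.60 FPKM in TF1-BA and 3.46 and 4.003 FPKM in TF1-BAR. It rose by 1.04 (95% interval 0.75 to 1.34, adjusted p = 0.00776). The log2 fold change of ZBTB16 was 0.89 with a pseudocount of 1 FPKM and 0.94 with quantile normalization, both under the fold threshold. Without TF1-BA replicate 1 or 2 its adjusted p was 0.0568 and 0.0527, and without TF1-BAR replicate 2 its log2 fold change was 0.95, under the fold threshold. PML had a log2 fold change of 0.33 (adjusted p = 0.0604), and the corepressor NCOR1 had 0.23 (adjusted p = 0.0843). Parts of the corepressor complex had values below 0, TBL1XR1 with -0.34 (adjusted p = 0.195, and with voom -0.45, adjusted p = 0.0160) and HDAC3 with -0.087 (adjusted p = 0.393).

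Of 8 genes known to respond to retinoic acid, 5 were tested, and 2, PLAAT4 and CD38, fell past both thresholds, against 1.69% of all genes tested. PLAAT4, a growth suppressor that retinoids induce, had 4.05 and 4.43 FPKM in TF1-BA and 0.879 and 1.53 FPKM in TF1-BAR, and fell by 1.50 (95% interval -2.03 to -0.97, adjusted p = 0.0114). Without TF1-BA replicate 1 or 2 its adjusted p was 0.0626 and 0.0696, and with no filter 0.0578. CD38, an ectoenzyme that retinoic acid induces in myeloid cells, fell by 1.32 (adjusted p = 0.00409). HIC1, a transcriptional repressor, fell by 0.50 and passed the adjusted p alone (adjusted p = 0.0441, and 0.118 with no filter). TGM2, tissue transglutaminase, was the response gene with the highest level, at 112 and 105 against 92.9 and 102 FPKM, and its log2 fold change was -0.16 (adjusted p = 0.164).

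**Figure D4:**
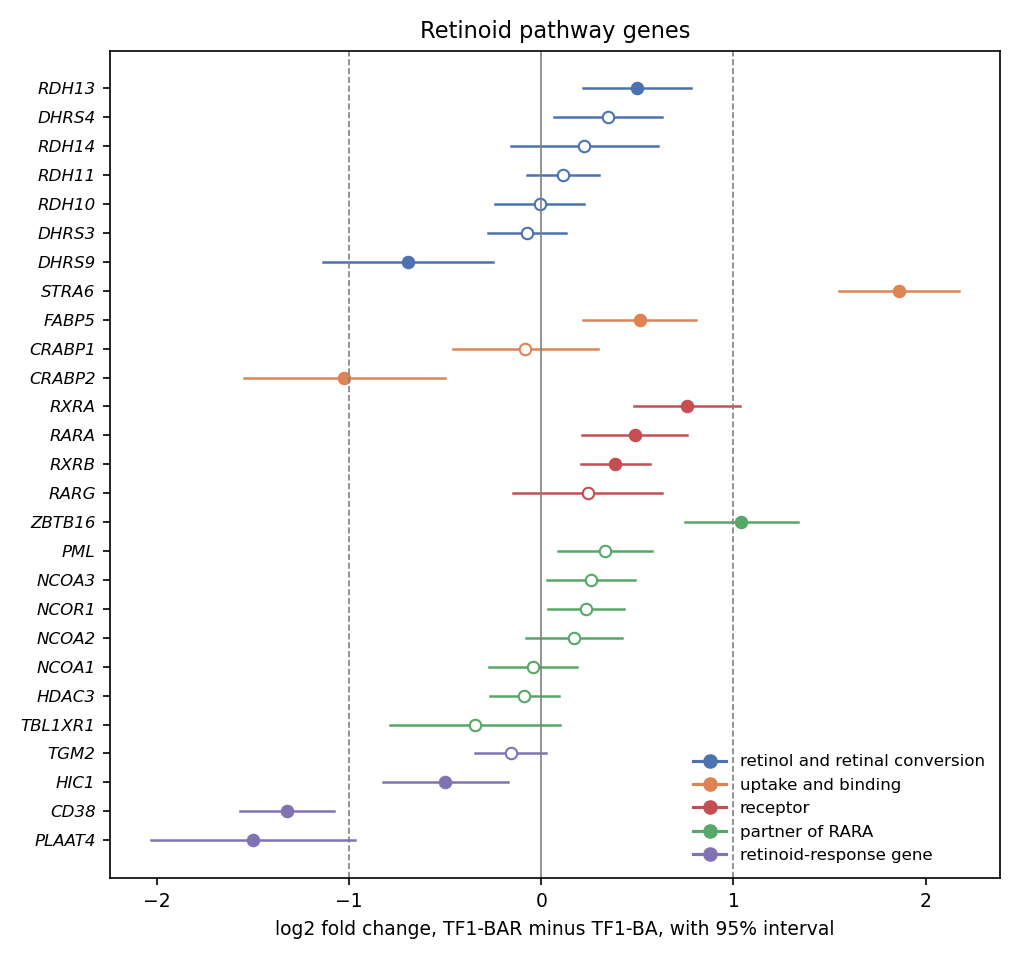
Log2 fold change with its 95% interval for 26 of the 28 retinoid genes tested and RARA, grouped by role in colours. Filled points have an adjusted p under 0.05 and dashed lines mark the fold threshold: STRA6 (1.86) and ZBTB16 (1.04) lie past it on the right, and CRABP2 (-1.02), CD38 (-1.32) and PLAAT4 (-1.50) on the left.

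Of 19 other enzymes that reduce or oxidise aldehydes or conjugate their products, 16 were listed and 9 tested. 3 fell past both thresholds and 6 by the adjusted p, against 1.69% and 10.5% of all genes tested, and 0 rose by either. The 3 were AKR1C1, AKR1C2 and AKR1C3, aldo-keto reductases that act on steroids and also on retinal. AKR1C2 had 8.13 and 9.10 FPKM in TF1-BA and 1.84 and 1.58 FPKM in TF1-BAR, and fell by 2.05 (95% interval -2.33 to -1.76, adjusted p = 0.00289). AKR1C1 fell by 1.44 and AKR1C3 by 1.62 (adjusted p = 0.00409 and 0.00409). These genes lie together on chromosome 10, where the 20 genes tested nearest to AKR1C2 had a median of -0.33, and are so alike in sequence that their reads may be split between them. The other 3 were ADH5, the glutathione-dependent formaldehyde dehydrogenase, at -0.31 (adjusted p = 0.0332), AKR7A2 at -0.55 (adjusted p = 0.0179) and CBR1 at -0.47 (adjusted p = 0.0230). With no filter on low values their adjusted p was 0.0705, 0.0637 and 0.0688. Of the 9, 8 were lower in each resistant library than in each sensitive one, against 28.4% of all genes tested. The remaining 1, AKR1A1, was higher in each, as were 40.9% of all genes, with a log2 fold change of 0.22 (adjusted p = 0.0670).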

How the data were processed

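Per the labels and the study's methods, the authors aligned paired-end reads with TopHat2 2.0.13 to GRCh38 and used Cufflinks and Cuffdiff 2.2.0. The deposited values are FPKM for 32673 genes in 4 libraries. log2(FPKM + 0.5) was fitted with limma 3.58.1 in R 4.3.3 (eBayes with a trend) for 15519 genes whose mean was 0.5 FPKM or more, with Benjamini-Hochberg adjustment over all of them. The study's thresholds were used, a log2 fold change of 1 or more in either direction together with an adjusted p below 0.05. The study applied them to results of DESeq2, another test, and not to limma on log2(FPKM + 0.5). A fold change on this scale understates changes of low genes. Fragments were recovered by finding library sizes and gene lengths at which all 4 values of a gene are whole (within 0.002 fragments, plus rounding). Of 30853 genes above 0, 13938 were whole at the GENCODE 44 exon length, 16914 at a fitted length, and 1 was not recovered. With wrong library sizes 0 of 300 were whole. For ALDH3A2 the fitted length left the fragment number uncertain, and none is given. Recovered fragments entered 1 alternative, limma voom with TMM scaling, for genes with a mean of 10 or more fragments. The other alternatives were pseudocounts, filters, quantile and upper-quartile scaling, TPM, no trend, the replicate number as a block, and leaving out each library. The fit was also run on simulated data, and the outcome is not reported here.

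The members and gene lists were chosen with earlier results of these data known. The rule named all members, the other aldehyde dehydrogenases tested, the retinoid receptors, and list genes past both thresholds. Other genes with values in the text were named after their values were seen. ALDH1L1, ALDH3B2, RBP4, RXRG, ADH1B, ADH7 and AKR1B10 were not analysed here, and some genes of the retinoid list are not reported here by name. PLAAT4 carries its older symbol RARRES3 in the table. Replicates correlated at 0.983 (TF1-BA) and 0.979 (TF1-BAR) across genes and differed by more than counting noise (chi-square over its degrees of freedom, 4.50 and 7.79). No label ties libraries to separate cultures or batches, so p-values measure the spread between these samples, which may be technical.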

Additional observations from a re-analysis of the deposited data

How the results depend on the processing

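The number of genes past both thresholds, 737 (474 higher and 263 lower), was 487 with a pseudocount of 1 FPKM, 1208 after rescaling to TPM, 1487 with voom on fragments and 4167 by the adjusted p alone, and lay between 429 and 794 without single libraries. Quantile normalization gave 359 higher and 338 lower, and moved the median log2 fold change of all genes from 0.066 to -0.0038, while TPM moved it to 0.15. Of the members, 0 became 1 with voom (ALDH3B1) and 1 by the adjusted p alone (RARA), and stayed at 0 without any single library. Other aldehyde dehydrogenases went from 0 to 2 by the adjusted p alone. The 1 past both thresholds with voom was ALDH8A1. It reached the mean of 10 fragments only through TF1-BAR, so that call is not used. Retinoid genes went from 5 to 3 with a pseudocount of 1 FPKM, to 3 with no filter, to 12 by the adjusted p alone, and to between 2 and 4 without single libraries. The other aldehyde-handling enzymes went from 3 to 6 by the adjusted p alone, and stayed at 3 without single libraries. The cause of these shifts was not tested. ALDH1B1 reversed to -0.023 with quantile normalization, -0.00096 with upper-quartile scaling, -0.067 with voom, and ran from -0.059 (without TF1-BA replicate 2) to 0.11 without single libraries, with -0.026 without TF1-BAR replicate 1. ALDH7A1 reversed to 0.057 with TPM, and without single libraries ran from -0.044 to 0.039 (without TF1-BAR replicate 1), with 0.012 without TF1-BA replicate 2. Both had adjusted p above 0.05 throughout. The adjusted p of RARA ran from 0.00520 to 0.166 over 14 alternatives, above 0.05 in 6 of them, with no filter (0.0934), without the trend (0.0590), with the replicate block (0.0510) and without 3 single libraries. For ALDH3B1, which passed the filter only through TF1-BA, the adjusted p with that filter is not used.

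Libraries with the same replicate number did not deviate together (correlation 0.0646 over 15519 genes), so the numbers give no pairing, and the fit with the replicate number as a block called 755 genes (487 higher and 268 lower), 0 members, 0 other aldehyde dehydrogenases, 5 retinoid genes and 3 aldehyde-handling enzymes. Depth limits ALDH1A2, ALDH1A3 and ALDH2, with 73 fragments or fewer in every library, which most alternatives could not test. For ALDH1A2 the log2 fold change was 0.61 with voom and 0.29 with no filter.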
